A study of Drosophila melanogaster with 17 samples.

Results

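The 8 genes described here are 4 larval storage protein genes (Lsp1alpha, Lsp1beta, Lsp1gamma and Lsp2) and 4 genes for proteins that circulate in the blood of the fly (apolpp, Tsf1, fon and Lst). They were taken by name and found by FlyBase identifier, and 8 of 8 are listed in both count tables, among 23882 features in heads and 18354 in guts (23925 in all). Messenger RNA was sequenced from mated male Drosophila melanogaster in a study of smell neurons and the circadian clock. The head groups were orco2 flies at day 40, w1118 flies at day 40, orco2 flies at day 3 and w1118 flies at day 3, with 2 libraries each. The gut groups, all at day 40, were per01, orco2 and w1118 flies, with 3 libraries each. orco2 is a mutant allele of Orco, the co-receptor that most odorant receptors need, and per01 is a mutant allele of the clock gene period. w1118 carries a mutation of the eye colour gene white and served as the wild type. All flies were kept at 25 °C and 60% humidity under 12 h of light and 12 h of dark, 20 to a vial, and were taken 8 h after lights on.

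The insect fat body does the work of liver and adipose tissue and secretes most proteins of the haemolymph, the fluid that fills the body cavity. Storage proteins of the hexamerin family are made in bulk by the larval fat body, kept in the haemolymph and taken back up as a source of amino acids during metamorphosis. Lipophorin, built on the product of apolpp, carries lipids between the fat body, the gut and other organs, transferrin carries iron, and the fat body that lies within the adult head capsule surrounds the brain.

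Library totals ran from 27082849 to 33932201 counts in heads and from 25792664 to 41693684 in guts. Levels are given in CPM, counts per 1e+06 counts after TMM scaling within a tissue. Orco had 24 to 46 counts in the 4 orco2 heads and 90 to 251 counts in the 4 w1118 heads. per had 673 to 783 counts in per01 guts, 364 to 535 counts in orco2 guts and 1415 to 3086 counts in w1118 guts. w had 525 to 934 counts in orco2 heads and 0 to 13 counts in w1118 heads, and per had 1411 to 1917 counts in orco2 heads and 4414 to 6344 counts in w1118 heads, so the strains also differed in these genes. The labels do not say that the strains share a background, and the mutation and the strain background cannot be told apart. A pair of head libraries held transcripts of the midgut protease gene alphaTry, orco2 day 3 replicate 1 at 125.5 CPM and w1118 day 40 replicate 2 at 69.8 CPM, while it was at 0 counts in the other 6. Nothing in the labels says that libraries of a group came from separate cultures, so each p-value below reflects spread that may be technical.

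The summed level of a list of 17 fat body markers was 7242 to 8436 CPM in orco2 heads at day 40, 3454 to 4386 CPM in w1118 heads at day 40, 3163 to 4518 CPM in orco2 heads at day 3 and 1803 to 2100 CPM in w1118 heads at day 3. Most of it came from enzymes of lipid synthesis such as Desat1 and FASN1. Pepck1 was at 0 counts in every library, and the larval fat body genes Fbp1 and Fbp2 reached at most 0.893 CPM and 0.187 CPM in heads. The summed level of these markers moved with most of the 8 genes, and its part in the results was not tested. In bulk heads, a change in the number of fat body cells and a change in RNA per cell cannot be told apart. A list of 6 haemocyte markers summed to 422.7 to 543.9 CPM, 424.9 to 517.3 CPM, 464.4 to 561.6 CPM and 441.1 to 514.0 CPM in the same 4 groups, which overlap. Marker sums of other head tissues did not overlap between ages within a genotype. Muscle markers summed to 1795 to 2093 CPM in orco2 and 1488 to 1880 CPM in w1118 heads at day 40, and to 3398 to 3765 CPM in orco2 and 3574 to 3652 CPM in w1118 heads at day 3. Neuron markers summed to 2395 to 2492 CPM in orco2 heads, against 2919 to 3224 CPM in w1118 heads at day 40, and to 3053 to 4238 CPM in orco2 heads, against 4169 to 4231 CPM in w1118 heads at day 3. Retina markers summed to 55070 to 56860 CPM in orco2 and 57370 to 60650 CPM in w1118 heads at day 40, and to 38540 to 47030 CPM in orco2 and 33660 to 36780 CPM in w1118 heads at day 3. The higher retina sum at day 40 came from ninaE. It had 45710 to 47760 CPM in orco2 heads at day 40, against 24740 to 33010 CPM at day 3. In w1118 heads it had 48740 to 52220 CPM, against 24110 to 26760 CPM. The retina markers trp and ninaC were lower at day 40 in both genotypes. A further one, norpA, was lower in orco2 heads and overlapped between ages in w1118 heads. The part of these shifts in the results was not tested.

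The genes lie apart from each other in the genome (BDGP6, which is dm6). Lsp1alpha (FBgn0002562) is at X:12490291-12492982, Lsp1beta (FBgn0002563) at 2L:898500-901316, Lsp1gamma (FBgn0002564) at 3L:66430-68995 and Lsp2 (FBgn0002565) at 3L:12129393-12131869, all on the plus strand. Of the others, apolpp (FBgn0087002) spans 4:1060969-1077273 and Tsf1 (FBgn0022355) X:18387084-18390344 on the plus strand. On the minus strand are fon (FBgn0032773) at 2L:19383138-19386205 and Lst (FBgn0034140) at 2R:16574579-16576586. The counts cover exons. The Lsp1 genes are close relatives, and how reads that fit several places were counted is not given in the sources used here, so the split of counts among them is uncertain. Lsp2 shares 2096 exon bases with a noncoding gene on the opposite strand, asRNA:CR11538, which had 5 counts over all heads, and apolpp shares 96 exon bases with Zyx.

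Tsf1 and apolpp were the most abundant of the 8 transcripts in heads when levels were set per kilobase of exon. Tsf1 stood at 2020 to 2480 CPM per kilobase in orco2 heads at day 40, which is rank 17 to 23 among all features, and at 1080 to 1200 CPM per kilobase in w1118 heads at day 40, rank 33 to 38. apolpp came next with 636 to 751 CPM per kilobase in orco2 and 270 to 334 CPM per kilobase in w1118 heads at day 40. In orco2 heads at day 3 their ranges overlapped (381 to 534 CPM per kilobase for apolpp and 336 to 538 CPM per kilobase for Tsf1). In w1118 heads at day 3 Tsf1, at 191 to 231 CPM per kilobase, was above apolpp, at 113 to 146 CPM per kilobase. The order of the lower genes differed between groups. In orco2 heads at day 40 Lst, fon, Lsp2 and Lsp1beta all lay between 86.5 and 117 CPM per kilobase, and neighbours in that order overlapped. In w1118 heads at day 3 fon (14.2 to 17.9 CPM per kilobase) was above Lst (7.37 to 8.03 CPM per kilobase), which overlapped Lsp1beta (2.86 to 7.86 CPM per kilobase), and Lsp2 (1.91 to 2.29 CPM per kilobase) was below it. Lsp1gamma did not pass 2.62 CPM per kilobase in any head library.

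Together the 8 genes took 1.54% and 1.34% of all counts in orco2 heads at day 40, and 0.692% and 0.796% in w1118 heads at day 40. At day 3 they took 0.581% and 0.811% in orco2 heads, and 0.207% and 0.258% in w1118 heads. The group with both the mutation and the higher age had the largest share and young w1118 heads the smallest, with no overlap between them.

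**Figure D1:**
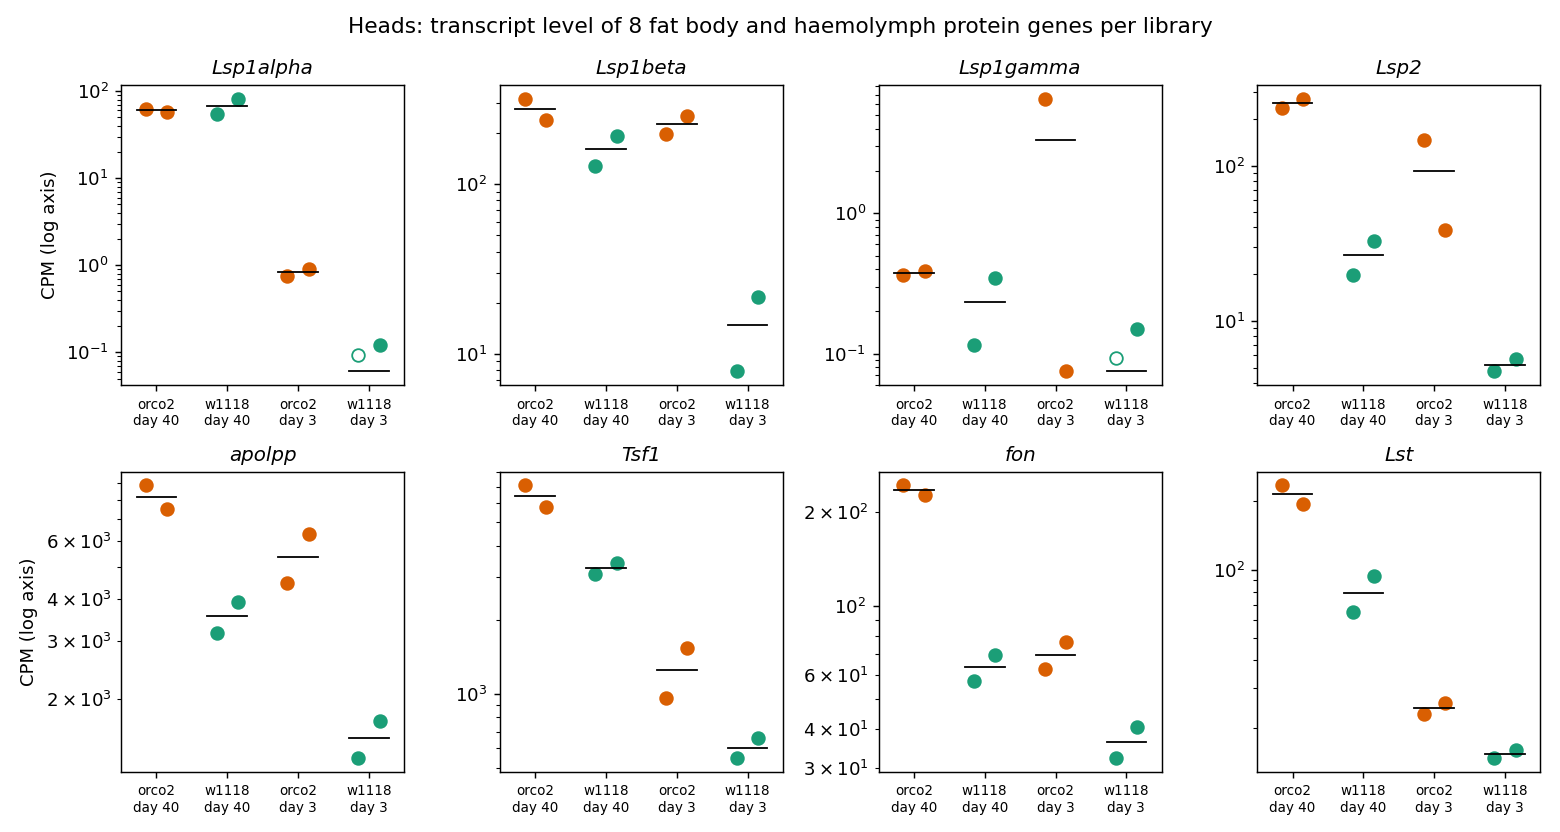
Level of each of the 8 genes in CPM (log axis) in the 8 head libraries, with 1 point per library and the group mean as a bar; open points are libraries with 0 counts, drawn at the level that 3 counts would give. Old orco2 heads are highest for Lsp2, apolpp, Tsf1, fon and Lst, while Lsp1alpha parts the ages and Lsp1gamma is near 0 apart from 1 library at 6.56 CPM.

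Storage, lipid, iron and clot protein genes rose in orco2 against w1118 heads at one or both ages, and 7 of 8 genes in w1118 heads and 4 of 8 in orco2 heads rose with age. Of the 8, 0 were called lower in any of these 4 comparisons. A gene is called, or said to have risen or fallen, when its adjusted p from edgeR's quasi-likelihood test is under 0.05 over the 12243 genes tested in heads, and all 8 were tested. Values after ± are standard errors of log2 fold changes. The 8 genes were chosen with earlier results of these data known. Shares over all tested genes are set beside them as a description, not as a test of the set.

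At day 3, 6 of 8 rose in orco2 against w1118 heads, where 4.85% of all tested genes were called higher, 2.43% lower and 7.28% in either direction. The groups did not overlap for 7 of 8 genes, Lsp1gamma being the exception, and for 49.2% of all tested genes. Their median log2 fold change was 2.74, against 0.01 over all tested genes. Without w1118 day 3 replicate 1 only Lsp1beta and apolpp were still called (2 of 8), along with 2.22% of all tested genes, and without replicate 2 of that group 4 of 8 and 2.74% were. With only the 2 groups in the fit, 3 of 8 and 3.02% of all tested genes were called.

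At day 40, 5 of 8 rose in orco2 heads, where 8.06% of all tested genes were called higher, 4.89% lower and 13.0% in either direction. Groups did not overlap for 7 of 8 genes and for 66.1% of all tested genes, and the median log2 fold change was 1.09, against -0.0017 over all genes. The count was 2 of 8 without w1118 day 40 replicate 1 or without orco2 day 40 replicate 1, and 3 of 8 without orco2 day 40 replicate 2, with fon and Lst called each time. Over all 12243 tested genes 315, 350 and 490 were called in those 3 fits. Without w1118 day 40 replicate 2 the share was 5.96%, with 4 of 8 genes called.

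With age, 7 of 8 rose in w1118 heads, where 8.56% of all tested genes were called higher at day 40, 7.23% lower and 15.8% in either direction. The median log2 fold change was 2.35, against 0.04 over all genes, and 7 of 8 genes and 67.8% of all genes showed no overlap between ages. The count fell to 4 of 8 without w1118 day 3 replicate 1 or without w1118 day 40 replicate 2, with Lst, Lsp1alpha, Tsf1 and Lsp1beta called each time, and 3.64% and 4.61% of all tested genes were called in those fits. In orco2 heads 4 of 8 rose with age, where 12.8% of all tested genes were called higher, 11.4% lower and 24.2% in either direction. There 6 of 8 genes and 60.7% of all genes showed no overlap, and the median log2 fold change was 1.61, against -0.01 over all genes. Without orco2 day 3 replicate 2 the count was 7 of 8, of which 1, Lsp1gamma, was lower, and 37.1% of all tested genes were called. The 4 head groups are each used in 2 of these comparisons, so the comparisons share libraries.

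**Figure D2:**
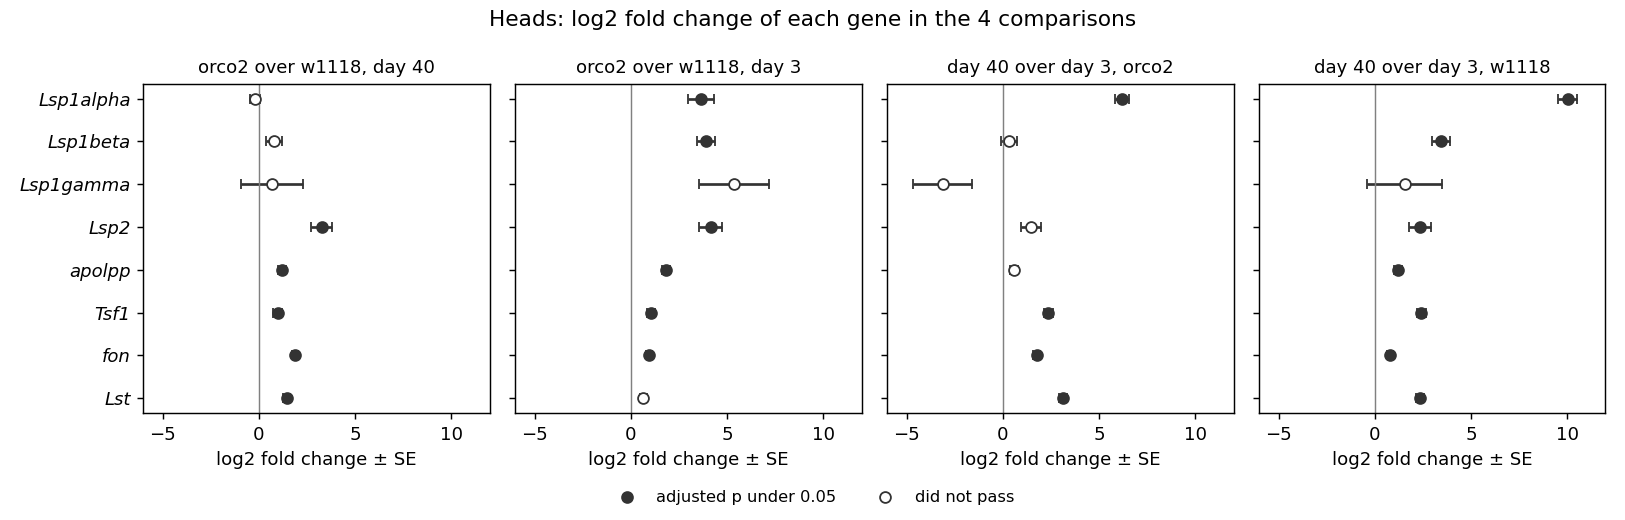
Log2 fold change of each gene in heads with its standard error (bars), for orco2 over w1118 at day 40 and day 3 and for day 40 over day 3 in orco2 and w1118; filled points have adjusted p under 0.05. Lsp1alpha is at 10.03 with age in w1118 heads and at 6.18 in orco2 heads but at -0.18 between genotypes at day 40, and Lsp2 is above 3 between genotypes at both ages.

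Lsp1alpha, a subunit of larval serum protein 1, was high in old heads and near 0 in young ones. It had 62.1 and 58.4 CPM in orco2 heads at day 40 and 54.2 and 82.2 CPM in w1118 heads at day 40. At day 3 it had 0.756 and 0.897 CPM in orco2 heads (22 and 24 counts), and 0 and 0.121 CPM in w1118 heads (0 and 4 counts). All old heads were thus far above all young ones, the old genotypes overlapped, and the young ones did not. It rose with age in orco2 heads by 6.18 ± 0.36 (adjusted p = 0.000179) and in w1118 heads by 10.03 ± 0.49 (adjusted p = 5.17e-05). The second change rests on 4 counts in young w1118 heads, and the ratio of the summed counts was 1110 with an exact 95% interval of 434 to 4090, which covers counting error only. A library with 0 counts allows up to 0.0932 CPM. Between genotypes it rose in orco2 at day 3 by 3.67 ± 0.68 (adjusted p = 0.017). This rise rests on the same 4 counts, against 46 in young orco2 heads. The ratio of summed counts was 13.4, with an exact 95% interval of 4.91 to 51.4 for counting error only. Without w1118 day 3 replicate 1 the rise was 2.73 and no longer called. The call was also lost by limma-voom (adjusted p = 0.208) and with only the compared groups (adjusted p = 0.159). At day 40 Lsp1alpha differed between genotypes by -0.18 ± 0.26 (adjusted p = 0.698).

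Lsp1beta, the second subunit of larval serum protein 1, was low in young w1118 heads alone. Its level was 318.7 and 237.9 CPM in orco2 heads and 128.5 and 192.8 CPM in w1118 heads at day 40, and 195.8 and 253.2 CPM in orco2 heads and 7.86 and 21.6 CPM in w1118 heads at day 3. The other 6 libraries lay between 128.5 and 318.7 CPM. The difference between genotypes was 3.93 ± 0.47 at day 3 (adjusted p = 0.00239) and 0.79 ± 0.41 at day 40 (adjusted p = 0.244). With age it rose in w1118 heads by 3.45 ± 0.46 (adjusted p = 0.00287), while in orco2 heads the difference was 0.31 ± 0.41 (adjusted p = 0.617).

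Lsp1gamma, the third subunit, was close to the limit of detection. Its level was 0.363 and 0.388 CPM in orco2 heads and 0.115 and 0.348 CPM in w1118 heads at day 40, and 6.56 and 0.0748 CPM in orco2 heads and 0 and 0.151 CPM in w1118 heads at day 3. The 6.56 CPM, 191 counts, came from orco2 day 3 replicate 1, a library that also held alphaTry, and the other orco2 library of that age had 2 counts. Lsp1gamma passed in none of the 4 comparisons, and its difference between genotypes at day 3 was 5.37 ± 1.81 with both orco2 libraries (adjusted p = 0.129) and -0.03 without that library (adjusted p = 0.995).

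Lsp2, the gene of the other larval serum protein, had the largest difference between genotypes that was called at both ages. It stood at 235.5 and 271.1 CPM in orco2 heads against 19.8 and 33.0 CPM in w1118 heads at day 40, a rise of 3.26 ± 0.56 (adjusted p = 0.01). At day 3 it stood at 145.9 and 38.6 CPM in orco2 heads against 4.72 and 5.68 CPM in w1118 heads, a rise of 4.15 ± 0.60 (adjusted p = 0.00562). Young orco2 heads were above old w1118 heads in both libraries, with the lower one close to them. The higher of the young orco2 values again came from the library with alphaTry, and without that library the rise was 2.88 (adjusted p = 0.000287). The call at day 3 was lost without w1118 replicate 1 (adjusted p = 0.0772) or replicate 2 (adjusted p = 0.0589). At day 40 it was lost without w1118 replicate 1 (adjusted p = 0.111), orco2 replicate 1 (adjusted p = 0.0562) or orco2 replicate 2 (adjusted p = 0.0545). With age Lsp2 rose in w1118 heads by 2.34 ± 0.56 (adjusted p = 0.0284), a call lost by limma-voom and when any 1 of the 4 libraries was left out. In orco2 heads the difference with age was 1.46 ± 0.52 (adjusted p = 0.0779). It was 2.74 without orco2 day 3 replicate 1 (adjusted p = 0.000563) and 0.84 without replicate 2 of that group (adjusted p = 0.0334), so both omissions made it a call, and limma-voom called it too (adjusted p = 0.0356).

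The lipid carrier gene apolpp had the highest counts of the 8. Old heads had 8837 and 7477 CPM in orco2, against 3174 and 3932 CPM in w1118, and young heads had 4487 and 6284 CPM in orco2, against 1327 and 1716 CPM in w1118. Each orco2 group lay above the w1118 group of its age, and also above the w1118 group of the other age. It rose in orco2 by 1.82 ± 0.21 at day 3 (adjusted p = 0.00197) and by 1.20 ± 0.20 at day 40 (adjusted p = 0.00938). With age it rose in w1118 heads by 1.22 ± 0.20 (adjusted p = 0.00692), and differed in orco2 heads by 0.60 ± 0.20 (adjusted p = 0.063, 0.00633 without orco2 day 3 replicate 2). The call at day 40 was lost without w1118 replicate 1 (adjusted p = 0.0996) or orco2 replicate 1 (adjusted p = 0.0831), and the call with age in w1118 heads without day 3 replicate 1 (adjusted p = 0.0782) or day 40 replicate 2 (adjusted p = 0.0553).

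The iron carrier gene Tsf1 changed with age by nearly the same amount in both genotypes. Its level was 7080 and 5768 CPM in orco2 heads and 3086 and 3425 CPM in w1118 heads at day 40, and 958.0 and 1535 CPM in orco2 heads and 546.0 and 659.8 CPM in w1118 heads at day 3. All 4 groups were apart from each other. The rise with age was 2.37 ± 0.23 in orco2 heads (adjusted p = 0.000952) and 2.43 ± 0.23 in w1118 heads (adjusted p = 0.000971). It rose in orco2 against w1118 heads by 1.05 ± 0.22 at day 3 (adjusted p = 0.0272) and by 0.98 ± 0.22 at day 40 (adjusted p = 0.027), and the call at day 40 was lost when any 1 of the 4 libraries was left out. At day 3 it was lost without w1118 replicate 1 (adjusted p = 0.222), without w1118 replicate 2 (adjusted p = 0.113) and with only the compared groups (adjusted p = 0.111), and the estimate was 0.65 without orco2 replicate 2.

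The gene fon encodes fondue, a protein that takes part in the cross-linking of the haemolymph clot. Its level was 243.9 and 226.4 CPM in orco2 heads and 57.3 and 69.4 CPM in w1118 heads at day 40, and 62.5 and 76.4 CPM in orco2 heads and 32.3 and 40.7 CPM in w1118 heads at day 3. Old orco2 heads stood far above the rest, and young orco2 heads overlapped old w1118 heads. It rose in orco2 by 0.93 ± 0.16 at day 3 (adjusted p = 0.0138) and by 1.89 ± 0.17 at day 40 (adjusted p = 0.000654). With age it rose by 1.76 ± 0.17 in orco2 heads (adjusted p = 0.000859) and by 0.79 ± 0.16 in w1118 heads (adjusted p = 0.0159). Without w1118 day 3 replicate 1 the call at day 3 (adjusted p = 0.132) and that with age in w1118 heads (adjusted p = 0.138) were lost, the second also without w1118 day 40 replicate 2 (adjusted p = 0.123).

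Lst encodes limostatin, a peptide hormone known in flies to lower insulin secretion under starvation and to be made by the endocrine cells of the corpora cardiaca. In old heads it had 235.2 and 194.1 CPM in orco2, against 64.9 and 93.5 CPM in w1118, and in young heads 23.2 and 25.8 CPM in orco2, against 14.8 and 16.1 CPM in w1118. No groups overlapped. It rose with age by 3.13 ± 0.20 in orco2 heads (adjusted p = 0.000216) and by 2.36 ± 0.19 in w1118 heads (adjusted p = 0.00062). The rise in orco2 against w1118 was 1.44 ± 0.18 at day 40 (adjusted p = 0.00295), and at day 3 the difference was 0.66 ± 0.19 (adjusted p = 0.0769, 0.0382 without orco2 replicate 1). Akh, the defining hormone of corpora cardiaca cells, was at 0.0706 to 0.363 CPM in orco2 heads and 0.837 to 4.70 CPM in w1118 heads at day 40, and at 0.374 to 4.22 CPM in orco2 heads and 0.121 to 0.373 CPM in w1118 heads at day 3. The highest Akh values, 4.70 CPM in w1118 day 40 replicate 2 and 4.22 CPM in orco2 day 3 replicate 1, came from the libraries that also held alphaTry. Other head libraries lay between 0.0706 and 0.837 CPM. Akh overlapped between the groups with the highest and the lowest Lst, and its part in the result was not tested.

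Whether the age change differed between genotypes was tested as an interaction, orco2 minus w1118. None of the 8 genes passed by edgeR, and 0.00817% of all tested genes did, which is 1 gene. Of the 8, 4 had unadjusted p under 0.05, 3 were called by DESeq2 (Lsp1alpha, Lsp1beta and fon) and 0 by limma-voom. The estimate was -3.85 ± 0.74 for Lsp1alpha and -3.14 ± 0.60 for Lsp1beta (adjusted p = 0.206 each), and for fon it was 0.96 ± 0.23 (adjusted p = 0.306) and for Lst 0.77 ± 0.26 (adjusted p = 0.417). Tsf1 was at -0.07 ± 0.31 (adjusted p = 0.967), apolpp at -0.62 ± 0.28 (adjusted p = 0.517) and Lsp2 at -0.89 ± 0.75 (adjusted p = 0.737). The estimates had both signs.

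Without the 2 libraries that held alphaTry, 7 of 8 genes were called between genotypes at day 3, 6 of 8 at day 40, 7 of 8 with age in w1118 heads and 5 of 8 with age in orco2 heads, all higher. Over all tested genes the called share without these libraries was 31.3%, 29.5%, 23.2% and 34.0% in the same comparisons, each above the share with all libraries. The interaction was then called for 5 of 8 genes and for 4.79% of all tested genes. It was negative for Lsp1alpha (-3.63, adjusted p = 0.014) and Lsp1beta (-2.99, adjusted p = 0.00658). It was positive for Lst (0.99, adjusted p = 0.0154), fon (0.97, adjusted p = 0.0162) and Lsp2, which changed sign to 0.78 (adjusted p = 0.0472). In that fit young orco2 and old w1118 heads are 1 library each, assumed to vary like the others.

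Set against apolpp in the same library, which needs no scaling between libraries, the genes did not keep a fixed proportion. Lsp1beta had 36.1 and 31.8 counts per 1000 apolpp counts in orco2 heads and 40.5 and 49.0 in w1118 heads at day 40, and 43.6 and 40.3 in orco2 heads and 5.93 and 12.6 in w1118 heads at day 3. Young w1118 heads stood far below the rest, and old orco2 heads lay below old w1118 and young orco2 heads. Lsp2 had 26.6 and 36.3 per 1000 in old orco2 heads against 6.25 and 8.38 in old w1118 heads, and 32.5 and 6.15 in young orco2 heads against 3.56 and 3.31 in young w1118 heads. Tsf1 had 801 and 771 per 1000 in orco2 heads and 972 and 871 in w1118 heads at day 40, and 214 and 244 in orco2 heads and 411 and 385 in w1118 heads at day 3. The Tsf1 share was thus lower in orco2 than in w1118 at each age, although its own level was higher.

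**Figure D3:**
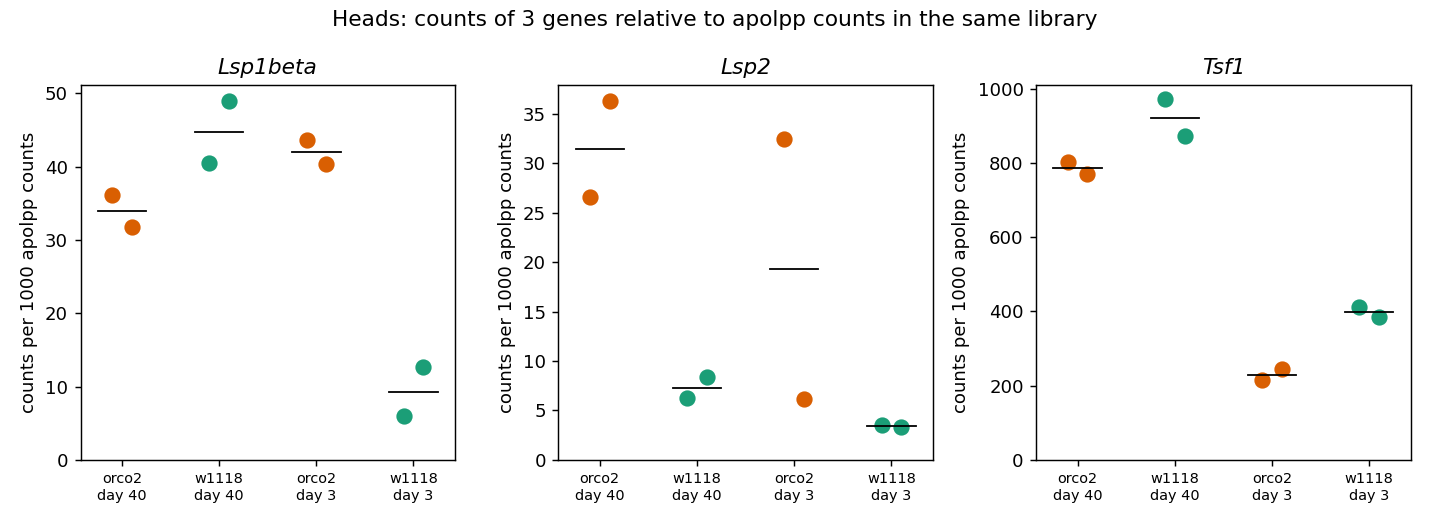
Counts of Lsp1beta, Lsp2 and Tsf1 per 1000 apolpp counts in the same head library (linear axis from 0), with 1 point per library and the group mean as a bar. Lsp1beta sits between 31.8 and 49.0 except in young w1118 heads, at 5.93 and 12.6, while Tsf1 splits first by age.

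Across the 8 head libraries, correlations of log2(CPM + 0.5) between the genes are given as a description. Lsp1alpha, Tsf1 and Lst had pairwise Pearson correlations of 0.93 to 0.98, and apolpp correlated with Lsp1beta at 0.94 and with Lsp2 at 0.92. These were not separate sets. fon correlated with apolpp at 0.90, Lst at 0.89, Lsp2 at 0.88 and Tsf1 at 0.87, and apolpp with Tsf1 at 0.80. Lsp1gamma correlated with the others at -0.11 to 0.51. The points share 4 groups, so a difference between groups sets most of each value. Among 8162 other genes with a mean of at least 5 CPM, those most like each gene over the 8 libraries were CG34227 (0.995), Ipk1 and Lk6 for Lsp1alpha, Pepck2 (0.987), CG12868 and CG33494 for Lsp1beta, and Adh (0.983), Cpr51A and PAPLA1 for Lsp2. For apolpp they were dsb (0.996), CG18343 and Daao2, for Tsf1 Obp56a (0.998), Nup44A and sta, for fon CG5793 (0.994), BomS2 and Nt5b, and for Lst CG7044 (0.996), CG9119 and BomT3. For Lsp1gamma they were CG31510 (0.969), Npl4 and TpnC4, a muscle gene, and the level of Lsp1gamma was above 0.388 CPM in only 1 of these libraries.

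Genes that work beside the 8 were counted as 7 lists in the same fits, without a test of the list. These lists too were chosen with earlier results of these data known. Over all tested genes, 8.06% were called higher and 4.89% lower in orco2 heads at day 40, and 4.85% and 2.43% at day 3. With age, 12.8% were called higher and 11.4% lower in orco2 heads, and 8.56% and 7.23% in w1118 heads. These shares apply to each list in heads below. Of the 17 fat body markers 15 were tested, of which 6 rose and 2 fell in orco2 heads at day 40, and 3 rose and 1 fell at day 3, while with age 9 rose and 0 fell in orco2 heads and 10 rose and 0 fell in w1118 heads. The lipase gene bmm rose in old orco2 heads by 1.16 ± 0.14 (adjusted p = 0.00223), with 165.3 and 202.5 CPM against 78.96 and 85.3 CPM in w1118. The maltase gene tobi went the other way, with 1.53 and 0.917 CPM in orco2 against 101.9 and 195.8 CPM in w1118 heads at day 40 (-6.93 ± 0.71, adjusted p = 0.00119). The yolk protein gene Yp3 also fell there, by 0.78 ± 0.14 (adjusted p = 0.0132). The secreted protein gene fit rose in young orco2 heads by 3.99 ± 0.46 (adjusted p = 0.00228), with 10.1 and 13.9 CPM against 0.901 and 0.604 CPM in w1118.

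Of 14 tested partners of lipophorin and lipid transfer, 5 rose and 1 fell in orco2 heads at day 40 and 3 rose and 1 fell at day 3, and with age 7 rose and 2 fell in orco2 and 4 rose and 0 fell in w1118 heads. Apoltp, the lipid transfer particle gene, and Mtp, whose protein loads lipid onto lipophorin, rose in all 4 comparisons, as did the lipid droplet gene Lsd-2. Apoltp had 400.8 and 381.8 CPM in orco2, against 218.7 and 259.4 CPM in w1118 heads at day 40, and 145.8 and 151.6 CPM in orco2, against 99.9 and 110.4 CPM in w1118 heads at day 3. Its rise in orco2 was 0.71 ± 0.12 at day 40 (adjusted p = 0.00989) and 0.50 ± 0.12 at day 3 (adjusted p = 0.0482), smaller than that of apolpp. Mtp rose in orco2 by 1.03 ± 0.15 at day 40 (adjusted p = 0.00545) and by 0.67 ± 0.15 at day 3 (adjusted p = 0.0385). The lipophorin receptor gene LpR1 was the 1 that fell in old orco2 heads.

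Of 13 tested iron genes, 0 rose and 1 fell in orco2 heads at day 40 (the multicopper oxidase gene Mco1, -1.08 ± 0.17, adjusted p = 0.00666). At day 3, 0 were called by edgeR, DESeq2 or limma-voom and 3 had unadjusted p under 0.05. With age 4 rose and 0 fell in each genotype. The ferritin heavy chain gene Fer1HCH rose with age in orco2 heads by 0.73 ± 0.12 (adjusted p = 0.00571) and in w1118 heads by 0.45 ± 0.12 (adjusted p = 0.0459), and the transferrin family gene Tsf3 by 0.73 ± 0.17 (adjusted p = 0.0185) and 0.60 ± 0.17 (adjusted p = 0.0481). Each of these changes was smaller than that of Tsf1.

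Of 25 tested genes of clotting and other haemolymph proteins, 10 rose and 1 fell in orco2 heads at day 40 and 4 rose and 0 fell at day 3, and with age 11 rose and 3 fell in orco2 and 10 rose and 3 fell in w1118 heads. Glt, which encodes the secreted protein glutactin, rose in orco2 by 1.77 ± 0.23 at day 40 (adjusted p = 0.00305), with 705.3 and 631.6 CPM against 155.2 and 235.8 CPM in w1118. It rose in orco2 by 1.61 ± 0.23 at day 3 (adjusted p = 0.00528). The imaginal disc growth factor gene Idgf5, of a chitinase-like family of secreted proteins, rose in orco2 by 1.84 ± 0.29 at day 40 (adjusted p = 0.00729) and by 2.46 ± 0.31 at day 3 (adjusted p = 0.00305).

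Of 8 tested signals that the fat body sends, 3 rose and 0 fell in orco2 heads at day 40 and 2 rose and 0 fell at day 3, and with age 3 rose and 1 fell in orco2 and 2 rose and 1 fell in w1118 heads. The growth-blocking peptide gene Gbp2 rose in all 4 comparisons, and in old heads it had 394.9 and 314.9 CPM in orco2 against 103.3 and 141.4 CPM in w1118 (1.54 ± 0.20, adjusted p = 0.00307). The insulin-like peptide gene Ilp6 rose in old orco2 heads by 1.03 ± 0.14 (adjusted p = 0.00388). The gene that fell with age in both genotypes was sun.

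Of 21 tested regulators of the moulting and juvenile hormones and of nutrient response, 0 rose and 1 fell in orco2 heads at each age. That gene was Cyp18a1, whose enzyme breaks down ecdysone, at 4.72 and 4.02 CPM in orco2, against 11.1 and 11.9 CPM in w1118 heads at day 40 (-1.39 ± 0.21, adjusted p = 0.00547). With age 4 rose and 5 fell in orco2 and 2 rose and 1 fell in w1118 heads, and jhamt, which encodes an enzyme of juvenile hormone synthesis, was among those that rose in both. The counts with age in w1118 heads were near the shares over all tested genes. Of 13 tested genes around limostatin and insulin, 0 were called by edgeR between genotypes at day 40, where 5 had unadjusted p under 0.05, DESeq2 called 3 and limma-voom called 1. At day 3, 0 were called by edgeR, with 4 at unadjusted p under 0.05, 4 by DESeq2 and 0 by limma-voom. With age 2 rose and 1 fell in orco2 and 0 rose and 1 fell in w1118 heads, near or below the shares over all tested genes. The gene that fell was Ilp3, an insulin-like peptide gene of the brain, at 6.39 and 6.18 CPM at day 40 against 32.8 and 62.8 CPM at day 3 in orco2 heads (-2.93 ± 0.32, adjusted p = 0.00129). PK1-R, the limostatin receptor gene, rose with age in orco2 heads by 0.96 ± 0.19 (adjusted p = 0.00973). For the interaction, 0 genes of the 7 lists were called by edgeR, with 1 to 4 per list at unadjusted p under 0.05, 0 to 2 by DESeq2 and 0 by limma-voom.

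**Figure D4:**
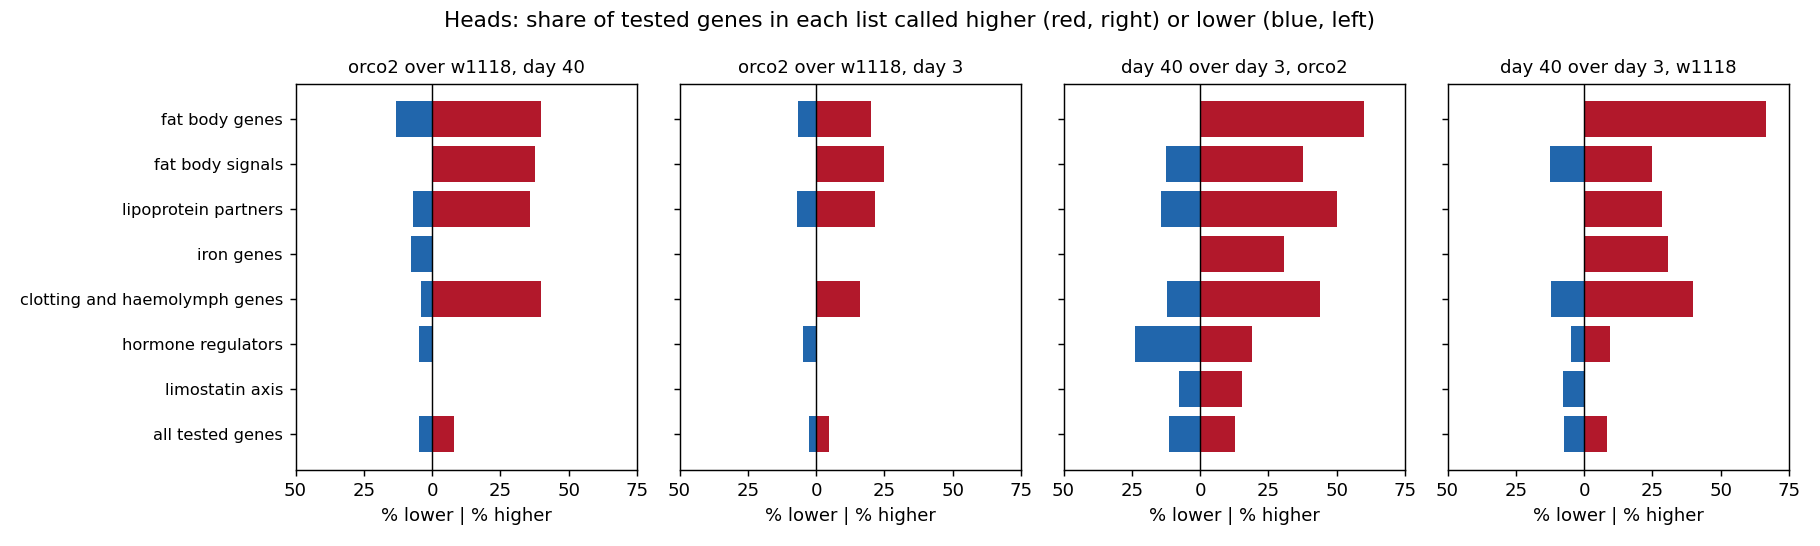
Share of the tested genes of each related list, and of all 12243 tested genes, that was called higher (right) or lower (left) in each head comparison, in percent. The lists were chosen with earlier results of these data known. Between genotypes, fat body, signal, lipoprotein and clotting lists have larger shares called higher than all tested genes at both ages, while fat body and lipoprotein lists also have larger shares called lower; 0 iron, hormone regulator and limostatin axis genes were called higher.

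In guts few of the 8 genes passed between strains. Tsf1, the iron carrier gene, fell in per01 guts against both other strains, and fon rose in orco2 against w1118 guts. In the gut fit 7 of 8 genes were among the 13453 tested, since Lsp1alpha was too low. In orco2 against w1118 guts 1 of 7 rose and 0 fell, where 11.5% of all tested genes were called higher, 15.1% lower and 26.6% in either direction, and the median log2 fold change was 0.21, against 0.06 over all genes. In per01 against w1118 guts 0 rose and 1 fell, where 9.33% of all tested genes were called lower, 9.66% higher and 19.0% in either direction. In per01 against orco2 guts 0 rose and 1 fell, where 2.07% of all tested genes were called lower, 3.33% higher and 5.40% in either direction. Counting Lsp1alpha too, libraries of orco2 and w1118 guts did not overlap for 4 of 8 genes and for 61.6% of all tested genes. Those of per01 and w1118 guts did not overlap for 3 of 8 genes and 32.6% of all tested genes, and those of per01 and orco2 guts for 3 of 8 genes and 54.6% of all tested genes. These shares of genes without overlap were near or below those over all tested genes. The 3 comparisons share libraries.

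Tsf1 stood at 130.9, 150.3 and 133.7 CPM in per01 guts, at 639.1, 354.1 and 487.8 CPM in orco2 guts and at 864.4, 407.8 and 571.9 CPM in w1118 guts. All per01 libraries were below all others, which overlapped. It fell in per01 against w1118 guts (log2 fold change -2.15 ± 0.34, adjusted p = 0.00769) and against orco2 guts (-1.84 ± 0.34, adjusted p = 0.0303), and the second call was lost without any 1 orco2 library, without per01 replicate 2 or without per01 replicate 3. In the fits that lost it, 0.141% to 0.662% of all tested genes were called. Over all fits without 1 library this estimate ran from -2.03 to -1.61. Per 1000 apolpp counts Tsf1 had 879, 698 and 480 in per01, 2490, 1480 and 2010 in orco2 and 3700, 8950 and 3840 in w1118 guts. Midgut enzyme markers summed to 82050 to 154600 CPM in per01 guts, against 13060 to 25400 CPM in orco2 and 9618 to 21130 CPM in w1118 guts, and their part in the result was not tested. With the 20 highest genes left out of the scaling the difference from w1118 was again -2.15 (adjusted p = 0.00768).

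For fon, guts had 10.5, 19.0 and 21.6 CPM in per01, 26.2, 13.7 and 21.4 CPM in orco2, against 10.2, 4.68 and 5.995 CPM in w1118. The rise in orco2 against w1118 guts was 1.55 ± 0.42 (adjusted p = 0.0305), and it was lost without w1118 replicate 2 or 3 or any 1 orco2 library. Marker lists of other tissues differed between the same guts. Accessory gland markers summed to 3102 to 4997 CPM in orco2 and 3.31 to 148.9 CPM in w1118 guts, oenocyte markers to 3363 to 9688 CPM in orco2 and 8.54 to 515.2 CPM in w1118 guts, and testis markers to 1067 to 1853 CPM in orco2 and 196.1 to 797.9 CPM in w1118 guts. The oenocyte sum was mostly Cyp4g1, at 3362 to 9687 CPM in orco2 and 6.85 to 512.3 CPM in w1118 guts. Another oenocyte marker, Desat2, was lower in orco2 (0.353 to 1.07 CPM) than in w1118 guts (1.32 to 2.90 CPM). The part of these marker differences in the result was not tested. Against w1118 guts, per01 guts differed by 1.29 ± 0.42 (adjusted p = 0.0629). apolpp had 148.8, 215.3 and 278.4 CPM in per01, 256.7, 238.8 and 242.8 CPM in orco2, against 233.8, 45.6 and 149.0 CPM in w1118 guts, and passed in no gut comparison. Lst lay between 8.72 and 18.1 CPM in all 9 guts and also passed in none.

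The storage protein genes were near 0 in all but 1 of the guts. In w1118 replicate 3 Lsp1alpha had 164 counts, Lsp1beta 354 and Lsp2 176, which is 5.72, 12.3 and 6.13 CPM. In the other 8 guts Lsp1alpha did not pass 0.423 CPM, Lsp1beta 1.94 CPM and Lsp2 0.685 CPM. The sum of fat body markers was 2214 CPM in that library and 1654 and 3353 CPM in the other w1118 guts, mostly from genes that guts also express, and the part of fat body in these counts was not tested. Without it the difference of Lsp2 in orco2 against w1118 guts, -2.21 with all libraries (adjusted p = 0.345), was 4.78 (adjusted p = 0.0441), with at most 0.0222 CPM left in w1118 guts. Lsp1gamma had at most 1.70 CPM in any gut.

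**Figure D5:**
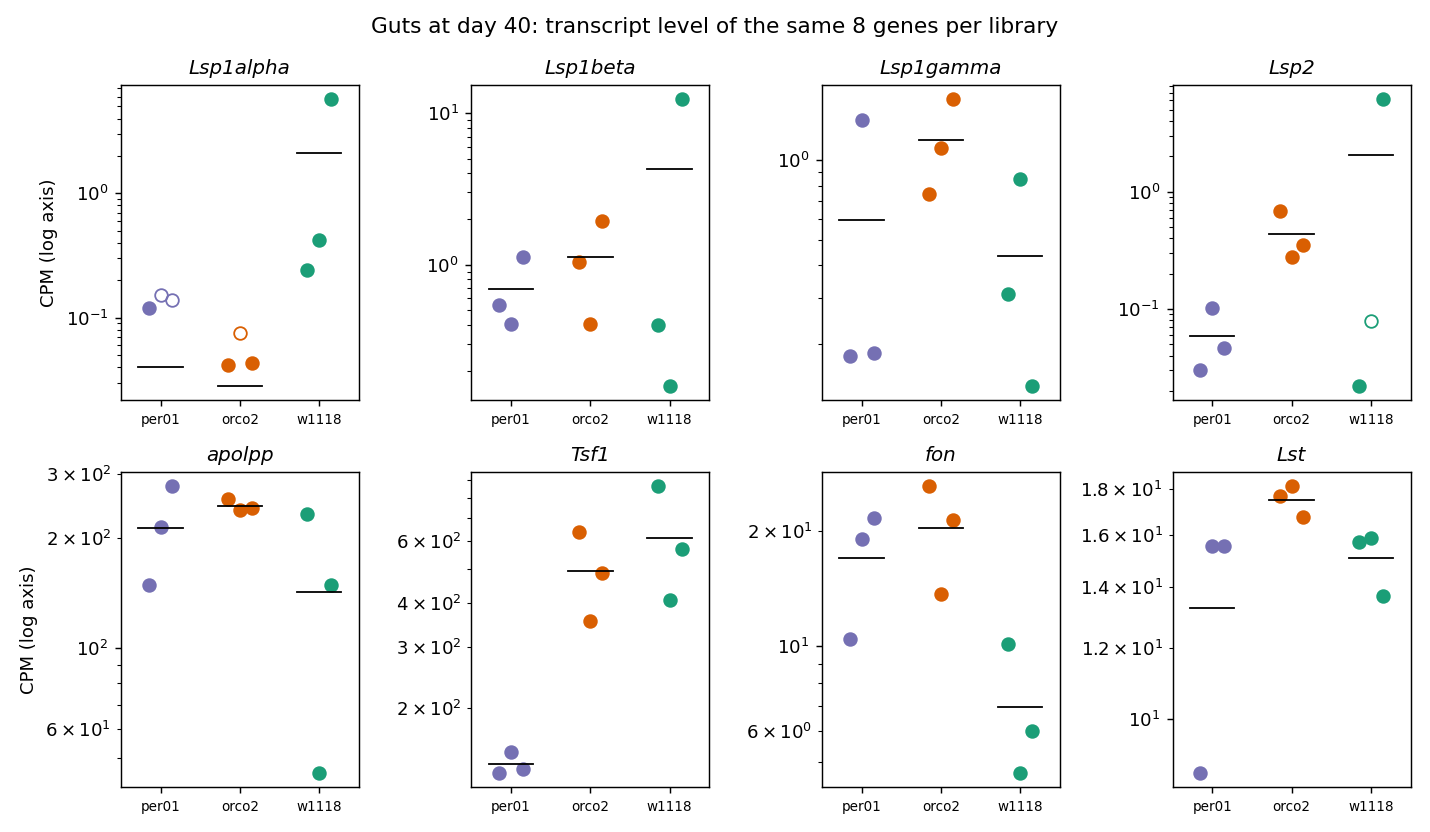
Level of the same 8 genes in CPM (log axis) in the 9 gut libraries of day 40, with 1 point per library and the group mean as a bar; open points are libraries with 0 counts, drawn at the level that 3 counts would give. Tsf1 is lowest in the 3 per01 guts, at 130.9 to 150.3 CPM, and 1 w1118 library holds most of the storage protein counts.

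Levels in heads and guts of the same genotype and age come from count tables that were scaled separately, so they are set side by side without a test. At day 40 apolpp ran from 7477 to 8837 CPM in orco2 heads and from 238.8 to 256.7 CPM in orco2 guts, a ratio of means of 33.1, and from 3174 to 3932 CPM in w1118 heads and 45.6 to 233.8 CPM in w1118 guts, a ratio of 24.9. For Tsf1 the ratio of heads over guts was 13.0 in orco2 and 5.30 in w1118, for fon 11.5 in orco2 and 9.12 in w1118, and for Lst 12.3 in orco2 and 5.25 in w1118. Lsp1gamma was the 1 gene with a lower level in heads, with ratios of 0.316 in orco2 and 0.536 in w1118, at low counts. It had 10 to 11 counts in orco2 heads and 36 to 78 in orco2 guts. In w1118 it had 4 to 12 counts in heads and 4 to 32 in guts.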

How the data were processed

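Heads and guts were compared within each tissue. The authors deposited 1 table of unnormalized counts for each tissue, made with fastp, HISAT2 and featureCounts against dm6, per the submitters' processing notes, which also name DESeq2. Annotation release, strand setting and the treatment of reads with several matches are not given in the sources used here. Between 60.3 and 75.5% of counts from 1 to 20 were even, so counting intervals may be too narrow. The members and all lists were chosen with earlier results of these data known.

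Counts were fitted per tissue with edgeR 4.0.16 in R 4.3.3 (TMM, filterByExpr with a minimum count of 10, quasi-likelihood F test on group means, all libraries of the tissue, no covariate, Benjamini-Hochberg over all tested genes, threshold 0.05). The fits were checked on simulated data. A zero count was given a floor of 3 counts per library, and floors and intervals cover counting error only. Exon lengths come from the BDGP6 annotation. Within groups, no pair of libraries was identical or differed by as little as sampling noise.

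Named genes were the 8 members, up to 4 genes with the smallest p per related list among those called, and the 3 genes with the highest Pearson correlation of log2(CPM + 0.5) with each member. LpR1 was named after its values were seen. Of 114 related list entries and 63 marker entries, 114 and 63 were matched. Markers were summed as CPM. The alternatives tried were no count filter, scaling by DESeq2 size factors, the DESeq2 1.42.0 test, limma-voom (limma 3.58.1), only the groups compared, a replicate block, each library left out, heads without alphaTry libraries and guts scaled without the 20 highest genes. Replicate numbers did not pair the libraries. Their deviations from group means correlated at -0.0715 to 0.0205 in the head groups compared and at -0.402 to 0.151 in guts. Between orco2 day 3 and w1118 day 40 heads, used together only in the interaction, the correlation was -0.317.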

Additional observations from a re-analysis of the deposited data

How the results depend on the processing

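Of 281 values under alternatives for the 25 called fold changes of single genes, 241 stayed past the threshold, 40 did not and 0 turned round, while of 453 values for the 36 others 392 stayed, 36 passed and 25 turned round. In the genotype comparison at day 3, 3 of 8 genes were called with only the compared groups in the fit. With age in orco2 heads 7 were called with no count filter. In the interaction 3 were called with no count filter, 3 by DESeq2 and 5 without the alphaTry libraries. In guts orco2 against w1118 had 2 with no count filter and 0 under the replicate block, per01 against w1118 had 2 by DESeq2, and per01 against orco2 had 0 under the replicate block and 2 with only the compared groups. Leaving out 1 library at a time gave 2 to 7 genes at day 3, 2 to 4 at day 40, 4 to 6 with age in w1118, 4 to 7 with age in orco2, 0 to 2 in the interaction, 0 to 1 in orco2 against w1118 guts, 1 to 2 in per01 against w1118 guts and 0 to 1 in per01 against orco2 guts. Under the block fon in orco2 against w1118 guts was 1.56 (adjusted p = 0.0568) and Tsf1 in per01 against orco2 guts -1.77 (adjusted p = 0.0737), and apolpp passed with age in orco2 heads, where 5 genes were called; the block changed no other call of a member.

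Without the alphaTry libraries Lsp1gamma turned to -0.03 at day 3, 2.27 with age in orco2 and 1.69 in the interaction, Lsp1alpha to 0.15 at day 40 and Lsp2 to 0.78 in the interaction. In orco2 against w1118 guts Lsp1beta was 0.21 by limma-voom, and Lsp2 1.81 by limma-voom and 0.53 under the block. Leaving out 1 library, Lsp1gamma ran from -0.03 to 9.66 at day 3, from -4.07 to 2.30 with age in orco2 and from -8.97 to 0.76 in the interaction, Lsp1alpha from -0.45 to 0.15 at day 40, and Lsp2 from -1.49 to 0.42 and Tsf1 from -0.32 to 0.37 in the interaction. In orco2 against w1118 guts Lsp1beta ran from -2.56 to 1.90, Lsp2 from -2.80 to 4.78 and Tsf1 from -0.55 to 0.01. In per01 against w1118 guts Lsp1beta ran from -3.20 to 1.30, Lsp1gamma from -1.23 to 1.35, Lsp2 from -5.68 to 2.01 and Lst from -0.32 to 0.04, and in per01 against orco2 guts apolpp ran from -0.43 to 0.0044. The cause was not tested.

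Over all genes the number called moved more. It was 891 at day 3 (347 with only the compared groups, 3830 without the alphaTry libraries), 1586 at day 40 (3113 and 3611), 1933 with age in w1118 (3816 and 2845) and 2968 with age in orco2 (1249 and 4159). In guts it was 3573, 2554 and 726 for orco2 against w1118, per01 against w1118 and per01 against orco2, with 6554, 4403 and 4539 by DESeq2 and 2070, 1294 and 42 under the block, and 5477, 1405 and 2331 with only the compared groups. In the interaction it was 1 (176 with no count filter, 159 by DESeq2 and 586 without the alphaTry libraries). These fits did not all test the same number of genes. DESeq2 and the fit with no count filter took in 18418 genes in heads, against 12243 in the main fit. For guts DESeq2 took in 15969 genes, against 13453. Fits with only the compared groups took in 11372 to 13300 genes. With 2 libraries per head group, counts of 5 or fewer for Lsp1gamma and Lsp1alpha in young w1118 heads set a limit on their folds.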

Other observations

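The related lists were also counted in guts, within the gut fit, and were not compared with heads by a test. In orco2 against w1118 guts, 3 of 25 clotting and haemolymph genes rose and 11 fell, where 11.5% of all tested genes were called higher and 15.1% lower. Tig, which encodes a secreted protein of muscle attachment and haemocytes, had 7.24, 10.4 and 9.25 CPM in orco2, against 81.7, 333.2 and 243.4 CPM in w1118 guts (-4.61 ± 0.50, adjusted p = 0.00306). PPO1, a prophenoloxidase gene of crystal cells, went the other way, with 5.35, 4.14 and 3.91 CPM in orco2 against 0.0886, 0.159 and 0.139 CPM in w1118 guts (5.09 ± 0.52, adjusted p = 0.00284). In per01 against w1118 guts 1 of the 25 rose and 8 fell, where 9.66% of all tested genes were called higher and 9.33% lower. There PPO1 was higher by 4.48 ± 0.51 (adjusted p = 0.00313) and Tig lower (-4.59 ± 0.50, adjusted p = 0.00313). Both comparisons use the same w1118 libraries. The muscle markers summed to 1488 to 2003 CPM in per01, 891.2 to 1170 CPM in orco2 and 2425 to 3780 CPM in w1118 guts, and their part in the difference of Tig was not tested.

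Of 21 hormone regulators, 0 rose and 10 fell in orco2 against w1118 guts, where 11.5% of all tested genes were called higher and 15.1% lower. Summed accessory gland, oenocyte and testis markers also differed between these guts (3102 to 4997, 3363 to 9688 and 1067 to 1853 CPM in orco2, against 3.31 to 148.9, 8.54 to 515.2 and 196.1 to 797.9 CPM in w1118), and their part was not tested. The oenocyte sum was mostly Cyp4g1. The ecdysone response gene Eip75B had 38.6, 39.0 and 38.1 CPM in orco2, against 142.9, 116.9 and 116.3 CPM in w1118 guts (-1.70 ± 0.22, adjusted p = 0.00392), and the ecdysone receptor gene EcR fell too (-1.42 ± 0.25, adjusted p = 0.00797). In per01 against w1118 guts 1 of 21 rose and 3 fell, where 9.66% of all tested genes were called higher and 9.33% lower. Over all tested genes 26.6% were called in either direction in orco2 against w1118 guts. The share was 19.0% in per01 against w1118 guts and 5.40% in per01 against orco2 guts. Of the fat body list, 2 of 15 rose and 2 fell in orco2 against w1118 guts, near the shares over all tested genes. For per01, 2 rose and 0 fell against w1118 guts and against orco2 guts. In the latter comparison 3.33% of all tested genes were called higher and 2.07% lower. The widest values were those of tobi, at 13070, 10330 and 24470 CPM in per01, 2.22, 2.13 and 2.42 CPM in orco2, against 1012, 434.8 and 485.2 CPM in w1118 guts.

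Of 15 iron genes, 2 rose and 2 fell in orco2 against w1118 guts and 1 rose and 1 fell in per01 against w1118 guts. Over all tested genes 11.5% were called higher and 15.1% lower in the first comparison, and 9.66% and 9.33% in the second. These shares apply to the other lists below too. Zip99C, a transporter gene of the ZIP family, rose in per01 (1.63 ± 0.21, adjusted p = 0.00407) and in orco2 (1.22 ± 0.21, adjusted p = 0.00745). In per01 against orco2 guts 2 rose and 0 fell, where 3.33% of all tested genes were called higher and 2.07% lower. Of 14 lipoprotein partners 0 rose and 4 fell in orco2 against w1118 guts, and 1 rose and 0 fell in per01 against w1118 guts and in per01 against orco2 guts. Of 8 fat body signals 1 rose and 3 fell in orco2 against w1118 guts, and 2 rose and 2 fell in per01 against w1118 guts. Of 12 limostatin axis genes 0 rose and 4 fell in orco2 against w1118 guts, and 1 rose and 3 fell in per01 against w1118 guts. In per01 against orco2 guts 0 fat body signals, clotting genes, hormone regulators and limostatin axis genes were called by edgeR, with 3, 5, 7 and 3 at unadjusted p under 0.05, 2, 5, 5 and 2 called by DESeq2 and 2, 4, 2 and 1 by limma-voom.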
